A study of Rattus norvegicus with 6 samples.

Results

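Intergenic circular RNAs with a short span were examined in the rat pineal gland, the gland of the brain that secretes melatonin. A circRNA was counted here if the deposited main tables call it intergenic, meaning that no annotated host gene is given for it, and if its ends lie less than 20000 bases apart. By this rule 326 circRNAs were found among the 2228 of the whole series (14.6%), and they held 22609 of 116358 back-splice reads (19.4%). Total RNA was sequenced from pineal glands taken from 6 rats aged 8 weeks, 1 library per rat, in 2 groups of 3 rats that differ by the time of death. By the sample titles and time tags, rats C01 to C03 belong to the night (hour 4) and the remaining 3, C04 to C06, to the day (hour 16). The treatment protocol instead has C01 to C03 dying in sunlight between hours 16 and 17 and C04 to C06 under red light between hours 4 and 5. Because of this conflict the groups keep their rat numbers below, and nothing is assigned to day or night. No genotype, strain or drug is given for any rat. The tables hold circRNAs only, so the tissue could not be checked against marker genes.

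A circRNA forms when the end of an exon is spliced back to an upstream start, which closes the RNA into a loop without free ends. Such loops are detected by reads that cross the back-splice junction, and they are known to resist exonucleases and to be plentiful in neural tissue. The label "intergenic" describes the annotation and not the RNA: exons of genes or long noncoding RNAs that the annotation lacks are reported in this way. The span is the distance between the ends in the genome and can include introns, so it is an upper bound on the length of the loop. A back-splice read count refers to 1 junction and was therefore compared between circRNAs without correction for length.

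Each library held 15506 to 22265 back-splice reads, of which the short intergenic circRNAs took 3074 to 4264. In the deposited TPM table of the series, which holds 198 of them, they took 4.31% to 6.2% of a library's total. All 326 took 18.1% to 20.3% of its back-splice reads. The percentages differ in measure and in the circRNAs they cover, so they are not directly comparable. No read name was counted for more than 1 of them. A main table lists a circRNA only from 2 back-splice reads, and no listing had a circular share (back-splice reads, each counted as 2, as a percentage of themselves plus the linear reads at both ends) below 9.1%. The tables do not say why a circRNA is unlisted, and an unlisted circRNA is not a measured 0. Each library also has the list of a second circRNA caller, which gives no such share. It reports GT and AG at the junction edges of every short intergenic circRNA that it lists.

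Spans ran from 146 to 19911 bases, with a median of 5575 and quartiles of 2031 and 11928. Only 22 spanned less than 500 bases and 21 from 500 to 1000, while 96 spanned 10000 bases or more, and these 96 held 41.4% of the reads. The shortest, chr18:82775920-82776065 and chr10:86815174-86815335 (162 bases), had 2 reads each, both in C03. The longest, chr9:104545364-104565274, was listed in all 6 libraries with 11, 12, 18, 23, 29 and 20 reads from C01 to C06. The intergenic circRNAs on either side of the span limit covered 19911 and 20050 bases. Of the 22 spanning under 500 bases none was listed in all 6 libraries and 7 were found by the second caller, against 63 found by the second caller among the 96 longest.

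**Figure D1:**
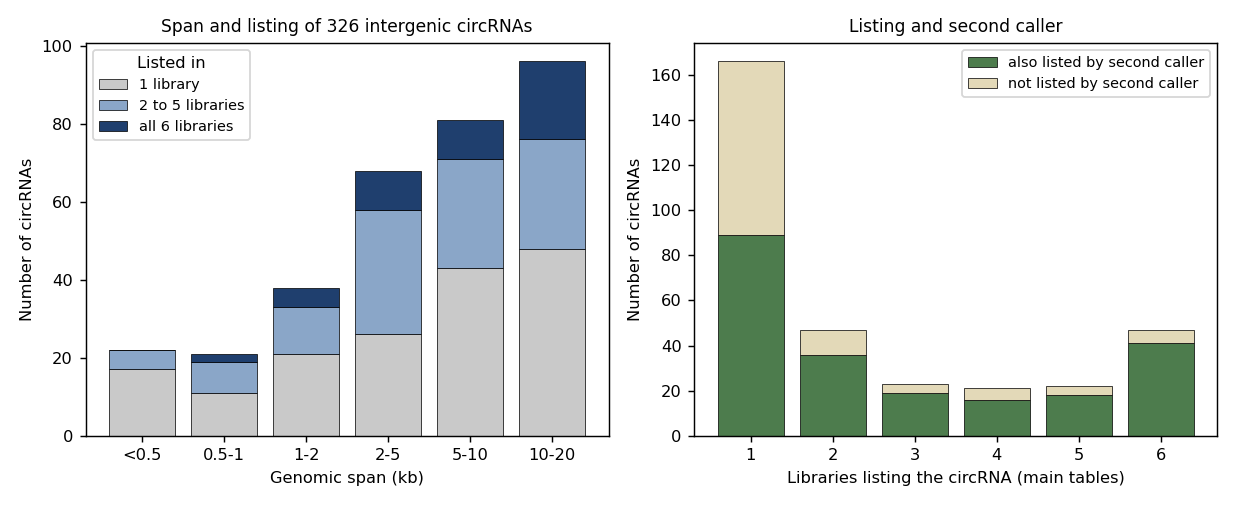
Left, number of intergenic circRNAs under 20 kb (y axis) by genomic span in kb (x axis), stacked by whether 1, 2 to 5 or all 6 libraries listed them. Right, the same circRNAs by the number of libraries listing them, stacked by whether the second caller listed them in any library: 166 were listed in 1 library, 89 of them by the second caller, and 41 of the 47 listed in all 6.

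They lay on every autosome and on both sex chromosomes, with 43 on chromosome 1, 26 on chromosome 4, 13 on X and 2 on Y. Chromosome 3 had 13 of them but 27.9% of their reads, since the first and the third in abundance lie there. By strand 177 were on minus and 149 on plus, and the second caller gave the same strand at all 219 that it listed. The median distance to the nearest circRNA with an annotated host gene was 777557 bases, and 14.1% had one within 100000 bases. For intergenic circRNAs of 20 kb or more these values were 853134 bases and 15.5%. Only 10 overlapped a circRNA with a host gene, all 10 on its strand.

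The short intergenic circRNAs were mostly single. They fell into 286 separate loci, of which 251 held 1 circRNA, 31 held 2, 3 held 3 and 1 held 4. In 34 of the 35 loci with several, at least 2 circRNAs had the same start or the same end, which is the pattern known as alternative back-splicing, where 1 splice site pairs with several partners. An overlap with intergenic circRNAs of 20 kb or more was found for 82 (25.2%), and 66 shared a start or end with 1 of them.

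Detection was uneven between rats. Of the 326, 166 (50.9%) were listed in 1 library only, and these held 3.17% of the reads, with 2 reads at 54 of them and a maximum of 18. The 47 listed in all 6 libraries (14.4%) held 82.9% of the reads and had a median of 28 reads where listed, against 3 for those listed once. The second caller listed 53.6% of the former class of 166 in some library and 87.2% of the 47. Together it found 219 of 326 (67.2%), and 198 were found by both callers in the same library. The 107 it never listed held 21.3% of the reads. Across circRNAs found by both callers in a library (75 to 93), log2 read numbers had a Pearson's r of 0.908 to 0.928. These are points of the same library and not independent replicates.

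A few circRNAs carried most of the signal. The 3 most abundant took 39.9% of all reads of the short intergenic circRNAs and the 10 most abundant 59.8%. First was chr3:104816866-104818862, with a span of 1997 bases on the plus strand. From C01 to C06 its back-splice reads numbered 939, 602, 688, 497, 555 and 488. Second was chr2:240854068-240867796, spanning 13729 bases on the minus strand, with 478, 375 and 398 reads in the first 3 rats against 566, 594 and 543. The next was chr3:81127393-81143240, spanning 15848 bases on plus, with 379, 277 and 329 against 428, 481 and 410. The groups did not overlap in normalised counts at any of these 3, the first being higher and the other two lower in C01 to C03. The second caller counted 980, 730, 824, 347, 668 and 474 reads at the first from C01 to C06, but 97, 118, 100, 94, 155 and 125 at the second and none in any library at the last of the 3.

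After these came chr1:204959173-204961691 with 154 to 262 reads per library, chr5:101648419-101663967 with 100 to 125, and chr15:105493588-105495743 with 92 to 138. The remaining 4 of the 10 were chr8:28018432-28026404 (71 to 90 reads), chr1:220047471-220049075 (69 to 94), chr1:136685584-136699335 (53 to 82) and chr20:31723858-31736111 (47 to 82). Over the 6 libraries the 10 spanned a range of mean normalised CPM (back-splice reads per 1e6, scaled with TMM factors) from 36296 ± 9633 down to 3778 ± 561 (SD, n = 6). The fifth to eighth, at 6722 ± 565, 6613 ± 852, 4810 ± 622 and 4559 ± 324, did not all stand apart: the SDs of the fifth and sixth overlapped, as did those of neighbours from the seventh on. The second caller lacked chr1:220047471-220049075 in every library.

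**Figure D2:**
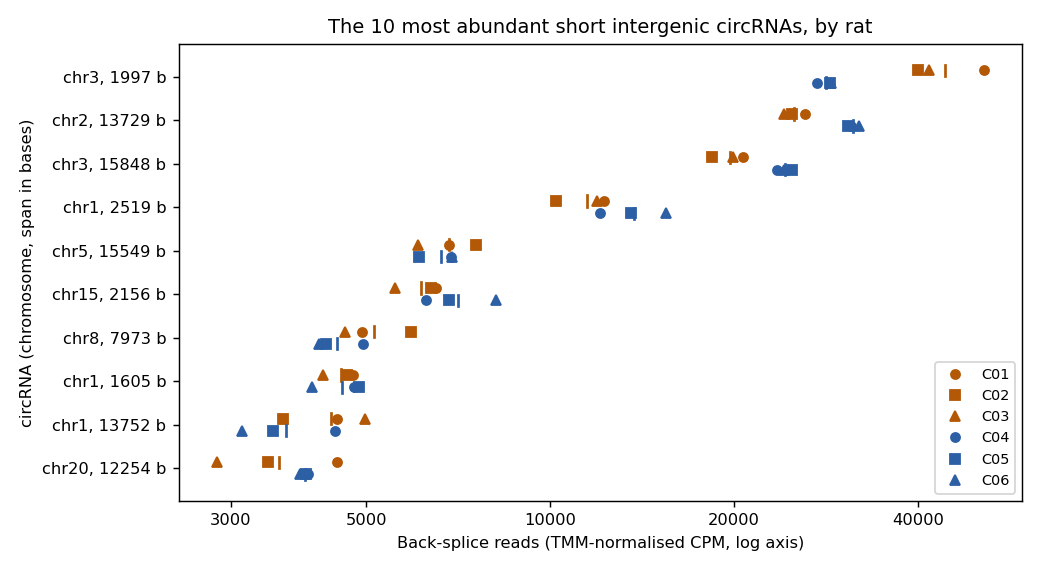
TMM-normalised back-splice reads in CPM (x axis, log scale) of the 10 most abundant short intergenic circRNAs (y axis, named by chromosome and span in bases), with 1 point per rat and a vertical line at each group's mean. The groups separate at the top 3 and overlap at the other 7.

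The largest locus lay on the minus strand of chromosome X and held 4 circRNAs with the common start 119208336, ending at 119208618, 119210714, 119213196 and 119223573. At the end 119223573 there were 78, 46 and 50 reads against 41, 44 and 36 in C04 to C06. At the end 119213196 there were 64, 42 and 56 against 42, 35 and 39. At the nearest end, 119208618, a span of only 283 bases, there were 78, 57 and 70 against 41 and 40 in C05 and C06, and C04 did not list it. All 3 had their most reads in C01, the last of them with none listed in C04. The circRNA ending at 119210714 was listed only in C01, C04 and C05 (19, 10 and 18 reads). It was the one of the 4 that the second caller found, with 7, 2, 5, 4, 10 and 0 reads, whereas the second caller had none at the other three in any library.

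Other loci had 1 dominant circRNA and minor ones. On chromosome 20, 3 circRNAs ended at 31736111, of which that starting at 31723858 had 47 to 82 reads per library. The one starting at 31723610 had 7 to 15, and that starting at 31723668 had 2 reads in C05 alone. On chromosome 5, 2 circRNAs started at 101648419: that ending at 101663967 had 100 to 125 reads in every library, while chr5:101648419-101660933 had 18, 22, 17 and 24 in C02, C03, C04 and C06 and was unlisted in C01 and C05. The circular share of the latter was 9.63%, 9.89%, 9.66% and 12.7% where listed, close to the lowest listed share, and the second caller gave it 3 and 10 reads in the 2 libraries without a listing. A locus on chromosome 1 between 194917622 and 194934956 held 3 circRNAs, of which chr1:194917622-194924798 had 87, 58, 55 and 57 reads in C01, C02, C04 and C06. It was unlisted in C03 and C05, and its share lay between 9.14% and 11.1% in the 4 libraries with a listing. At chromosome 1 from 54441038, 3 circRNAs with that start were each listed in a different single library, with 4, 3 and 7 reads.

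The circular share differed widely among the short intergenic circRNAs. Of all listings in the 6 libraries, 126 (15.7%) had a share under 12% and 72 (8.94%) a share of 80% or more. In the 47 listed in every library the mean share ran from 12.7% to 94.8% with a median of 32.2%, and 15 of them had 50% or more. For the 166 listed once the median was 19.5%. The highest mean shares among the 47 were at chr8:28018432-28026404, where it was 92.2% to 95.7% with 7 to 12 linear reads, and at chr20:31723858-31736111, where it was 86.5% to 97.6% with 4 to 24. Next came chr13:32453777-32469550 (83.3% to 95.2%), then chr1:126573474-126583015 (78.7% to 95.2%) and chr16:64400294-64415446 (66.7% to 94.1%, from only 2 to 11 back-splice reads). At these 5 loci the share was above 50% in every library.

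There were 1151 combinations of a circRNA and a library without a listing, and in 186 of them the second caller had reads, up to 25. The 104 circRNAs concerned had a median share of 14.4% where listed (quartiles 11.6% and 21.1%). Of the 175 others with a gap, 101 were never listed by the second caller, so such reads could not be found for them, and their median share was 23.1% (quartiles 16% and 41%). The remaining 74, which the second caller listed but in none of their gaps, had a median of 25.1% (quartiles 16.3% and 49.8%).

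The study's central question was which circRNAs differ between the groups of glands. Among the short intergenic ones 3 of 113 tested passed, 1 higher and 2 lower in C01 to C03. One of the lower calls, on chromosome 20, rests on unlisted entries counted as 0 and is not read as a difference between the groups. Over all 772 circRNAs tested (2 or more reads in 3 or more libraries) 12 were called, or 1.55%, with 0.389% called higher and 1.17% lower. The median log2 difference was -0.10 in both, with 50 of the 113 above 0 and 63 below. With unlisted entries counted as 0, groups without overlap were seen at 23 of the 113, where 19% of all 772 had none. Other settings called 5 with no filter (1.84% of all circRNAs), 1 among those listed in all 6 libraries (2.56%), 6 with limma-voom (4.27%) and 1 with the second caller's counts (0.0906%). Unless another test is named, these are quasi-likelihood tests of edgeR, adjusted by Benjamini-Hochberg, and differences are C01 to C03 minus C04 to C06.

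The one that was higher in C01 to C03 was the most abundant, chr3:104816866-104818862. It had 51330, 39960 and 41712 normalised CPM there against 27301, 28697 and 28775, a log2 difference of 0.65 (SE 0.10, edgeR adjusted p 0.036). Every rat of C01 to C03 lay above every rat of C04 to C06. The second caller's counts gave 0.71 (edgeR adjusted p 0.031) and limma-voom on the main counts 0.64 (adjusted p 0.0069). Without C03, C04, C05 or C06 it was not called, with differences of 0.68 to 0.70 (edgeR adjusted p 0.074 to 0.24).

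Of those lower in C01 to C03, chr2:240854068-240867796 had 26130, 24892 and 24130 normalised CPM against 31091, 30713 and 32018. The groups were separate and the difference small, -0.32 (SE 0.05, edgeR adjusted p 0.049). With RLE factors or DESeq2 it was -0.25 and was not called (edgeR and DESeq2 adjusted p 0.18 and 0.33), nor was it called without any 1 of the 6 rats (adjusted p 0.054 to 0.34). The second caller's counts gave the same size, -0.32, without a call (edgeR adjusted p 1). A similar difference that did not pass was seen at chr3:81127393-81143240, with 20718, 18387 and 19947 against 23511, 24870 and 24176 (-0.30, SE 0.07, edgeR adjusted p 0.13). It was called in 2 of 13 alternatives, limma-voom (adjusted p 0.013) and no filter (edgeR adjusted p 0.00099).

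The other that passed, chr20:25817478-25826661 (9184 bases, minus strand), was listed in C04 to C06 only, with 22, 34 and 23 reads in turn (edgeR adjusted p 0.036). It met the filter through these 3 libraries alone and was tested against unlisted entries set to 0, so the p does not compare measured values. No fold is given, because the second caller had reads for it in all 6 libraries, 25, 6 and 12 against 9, 12 and 18. Its counts overlapped between the groups and gave a log2 difference of 0.03 (edgeR adjusted p 1). The circular share was 14.1%, 19.3% and 12.9% in the 3 libraries that listed it. Without C01, C04, C05 or C06 it was not called (adjusted p 0.054 to 0.34).

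Listing in all rats of 1 group and none of the other was found for 3 of 113, and for 6.22% of the 772 (1.68% in the first group only, 4.53% in the second only). Besides the chromosome 20 circRNA these were chr19:17493068-17494680, with 7 reads in each of C04 to C06, and chr1:4204527-4207314, with 6, 8 and 4 reads in C01 to C03. At chr19 the second caller also had reads in C04 to C06 only (3, 6 and 3), and the shares were 11.8%, 9.59% and 12.8%. At chr1 the second caller had none in any library, and the shares were 15.8%, 19.5% and 11.8%. Neither passed the test (edgeR adjusted p 0.22 each). Limma-voom called both (adjusted p 0.026 and 0.044), and limma on either form of TPM called chr19 (adjusted p 0.0012 and 0.0013). The other alternatives called neither. In all these fits the unlisted entries of the other group stand at 0, so the p-values do not compare measured values. The next by unadjusted p was chr2:161664638-161668326, with 31, 19 and 9 reads against 2 and 3 in C05 and C06, while C04 did not list it. Its share was 50% to 83.8% where listed. With the gap in C04 counted as 0 its log2 difference was 3.56 (SE 1.02, edgeR adjusted p 0.22). Left without C04, the difference was 3.06 (edgeR adjusted p 0.29). Of 12 alternatives only DESeq2, with the same 0, called this circRNA (adjusted p 0.03). The second caller did not list it.

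**Figure D3:**
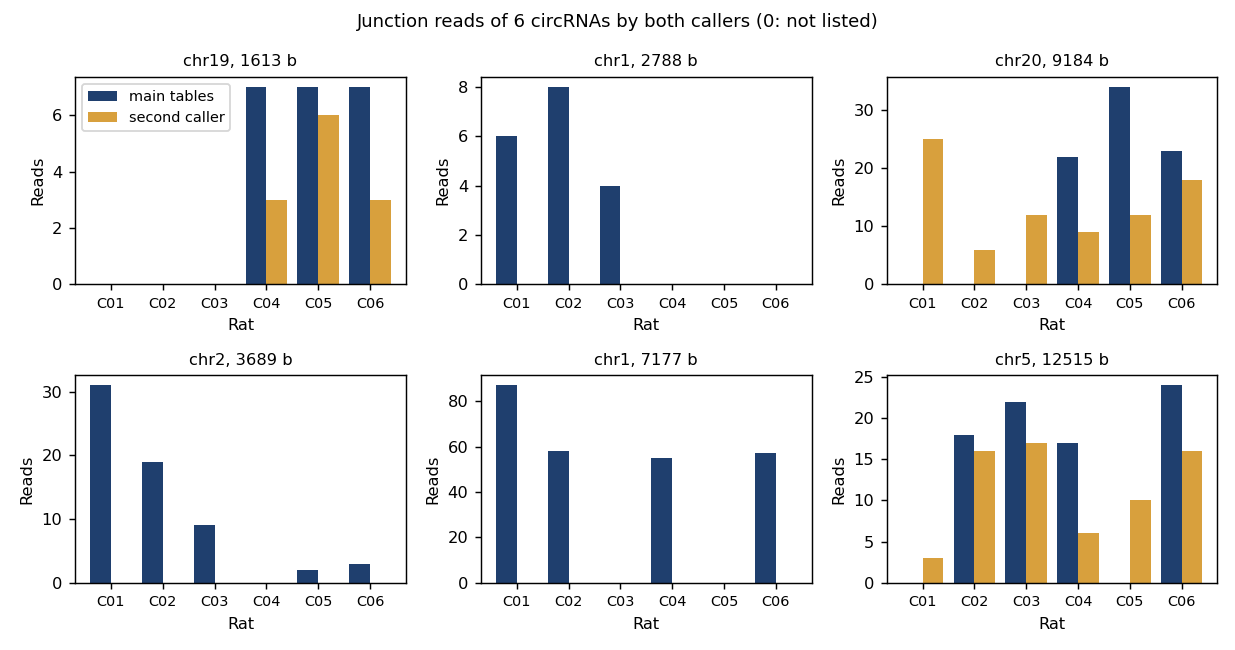
Junction reads (y axis) per rat (x axis) at 6 short intergenic circRNAs, named by chromosome and span in bases, in the main tables (dark bars) and the second caller's lists (light bars), where a missing bar means not listed. At chromosome 20 the main tables list C04 to C06 only while the second caller has 6 to 25 reads in every rat. The chromosome 1 circRNA of 2788 bases and the chromosome 2 circRNA have no reads of the second caller.

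Differences that did not pass were also seen on chromosome X, at chrX:119208336-119223573 (4264, 3053 and 3031 normalised CPM against 2252, 2275 and 2123, log2 difference 0.64, SE 0.19) and chrX:119208336-119213196 (3499, 2788 and 3395 against 2307, 1810 and 2300, log2 difference 0.59, SE 0.18). The groups did not overlap at either, and both share a start, so they are not separate evidence. Lower values in C01 to C03 were measured at chr13:32453777-32469550, with 1093, 1328 and 1091 against 1593, 2534 and 2594 (-0.93, SE 0.28). The edgeR adjusted p of these 3 was 0.22 each.

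The circular share was tested in the 47 listed in all 6 libraries, with limma on the log2 ratio of back-splice to linear reads. The log2 differences given for it are of that ratio and not of the share. At 1 of the 47 it passed, higher in C01 to C03, while 2.2% of all 273 circRNAs listed throughout were called (0.733% higher and 1.47% lower). With at least 20 back-splice plus linear reads required in every library, limma called 2 of the short intergenic circRNAs and 4.71% of all. The one called was chr15:105493588-105495743 (2156 bases), where the share was 45.8%, 44% and 40.6% against 24%, 24.6% and 26.7% (log2 difference 1.20, SE 0.22, limma adjusted p 0.033). It was not called once any 1 rat was left out (limma adjusted p 0.061 to 0.14), with log2 differences of 1.13 to 1.28. The nearest below the threshold was chr4:168514863-168517342, with 24.8%, 25.4% and 28.6% against 39.1%, 46.1% and 41.5% (-1.03, SE 0.23, limma adjusted p 0.052). At chr18:75203861-75207308 the shares were 29.6%, 29.3% and 29.6% against 57.1%, 58.5% and 34.8% (-1.19, SE 0.36, limma adjusted p 0.13). At chr12:587083-591296 they were 21.1%, 14.9% and 20% against 34.3%, 35.9% and 24.7% (-0.96, SE 0.30, limma adjusted p 0.15). On chromosome 20 the 2 circRNAs ending at 31736111 and listed in every library had larger mean shares in C01 to C03. These were 74.5% against 58% and 94% against 89.2%, with groups that overlapped at both. Their log2 ratios of back-splice to linear reads were higher by 1.09 and 1.04 (SE 0.46 and 0.54, limma adjusted p 0.23 and 0.33). The median log2 difference was -0.20 over the 47 and -0.20 over all 273, with 32 of the 47 below 0. Groups did not overlap at 12 of the 47, against 26.7% of the 273.

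**Figure D4:**
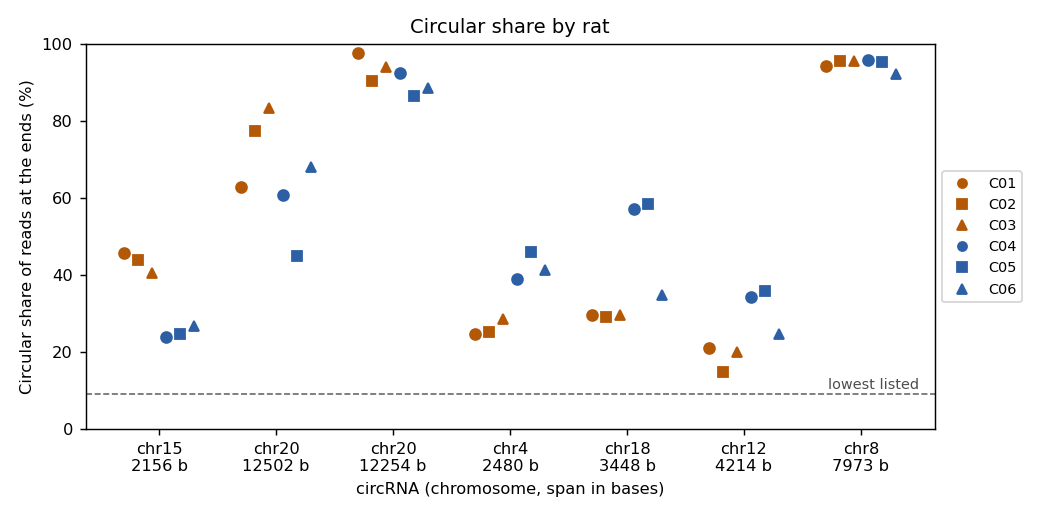
Circular share in percent (y axis) of 7 short intergenic circRNAs (x axis, chromosome and span in bases), the 3 with the smallest p for the share in each direction and that with the highest share, 1 point per rat, with 1 colour per group and a dashed line at the lowest share listed in the tables. The chromosome 15 circRNA, which passed the test, lies at 40.6% to 45.8% in the first group and at 24% to 26.7% in the second.

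Linear reads at the ends passed the test far more often than back-splice reads, whose fit on circRNAs listed in all 6 libraries called 1 of the 47. The 47 had a median of 114 linear reads where listed against 28 back-splice reads, so the tests are unlike in power. Linear reads were higher at 9 of the 47 and lower at 6 in C01 to C03, 15 in all. Of the 273, 31.9% were called (18.7% higher and 13.2% lower), so the short intergenic circRNAs were called at the rate of the rest. Linear reads had groups without overlap at 20 of the 47, against 46.2% of the 273. The edgeR fit of linear reads drew its spread almost wholly from all 273 circRNAs (148 prior degrees of freedom). Its smallest p-values therefore do not come from these rats' own spread at a locus. In the main fit of back-splice reads, over 772 circRNAs, the prior degrees of freedom were 2.58.

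The largest fall was at chr15:105493588-105495743, where linear reads numbered 282, 244 and 269 against 723, 807 and 756. The log2 difference was -1.52 (SE 0.08, edgeR adjusted p 8.8e-40). Back-splice reads there were 119, 96 and 92 against 114, 132 and 138. Thus the share at this locus differed with linear counts that stood far apart and back-splice counts that overlapped. At chr4:151118221-151123637 linear reads also fell, with 189, 155 and 162 against 357, 395 and 306 (-1.06, SE 0.11, edgeR adjusted p 2.2e-16). Its back-splice reads, 14, 11 and 10 against 31, 24 and 25, had a log2 difference of the same size that did not pass (-1.06, SE 0.33, edgeR adjusted p 0.22).

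Among the rises, chr3:104816866-104818862 had 1977, 1371 and 1393 linear reads against 828, 939 and 839, and chr1:136685584-136699335 had 1297, 1018 and 1028 against 668, 699 and 603. Their log2 differences were 0.86 (SE 0.05) and 0.76 (SE 0.06). The second locus had 82, 55 and 82 back-splice reads against 81, 68 and 53, with groups that overlapped. At chr4:168514863-168517342 linear reads were 224, 153 and 175 against 109, 110 and 113 (0.73, SE 0.13), and at chr4:168499186-168517342, which shares its end, 168, 151 and 126 against 83, 119 and 76 (0.69, SE 0.15). Also higher were chr3:140220436-140230678 (0.72, SE 0.11), chr15:25563660-25581597 (0.71, SE 0.11), chr5:101648419-101663967 (0.56, SE 0.11) and the 2 on chromosome X with back-splice reads in every library (0.55 and 0.53, SE 0.11 each). The last 2 share the linear reads at their start. The edgeR adjusted p of these 9 rises was at most 5.4e-05, and each was called under all 10 alternatives.

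The other falls were smaller or rested on few reads. They were at chr12:10527308-10534434 (-0.28, SE 0.08), chr5:159113203-159119213 (-0.33, SE 0.11), chr9:104545364-104565274 (-0.75, SE 0.27) and chr20:31723858-31736111 (-1.31, SE 0.44, with 4, 11 and 6 linear reads against 12, 24 and 17, which overlapped once normalised). Their edgeR adjusted p was 0.0031, 0.014, 0.022 and 0.013. The call on chromosome 5 was lost without C02, C03 or C05 or with DESeq2 (adjusted p 0.059 to 0.15), that on chromosome 9 without C01 or C06 or with DESeq2 (0.069 to 0.23), and that on chromosome 20 without C01, C05 or C06 (0.059 to 0.15). Of the 15 circRNAs called, 13 had a back-splice difference of the same sign, as had 30 of the 47. Signs were not counted over all 273, so neither number is read as particular to the short intergenic circRNAs. Some of these differences lay near 0, such as 0.04 (SE 0.11) at chr5:101648419-101663967. Those called on chromosome X share a start, and chr4:168514863-168517342 and chr4:168499186-168517342 an end, so the 15 are not separate loci. Both kinds of read come from the same libraries.

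**Figure D5:**
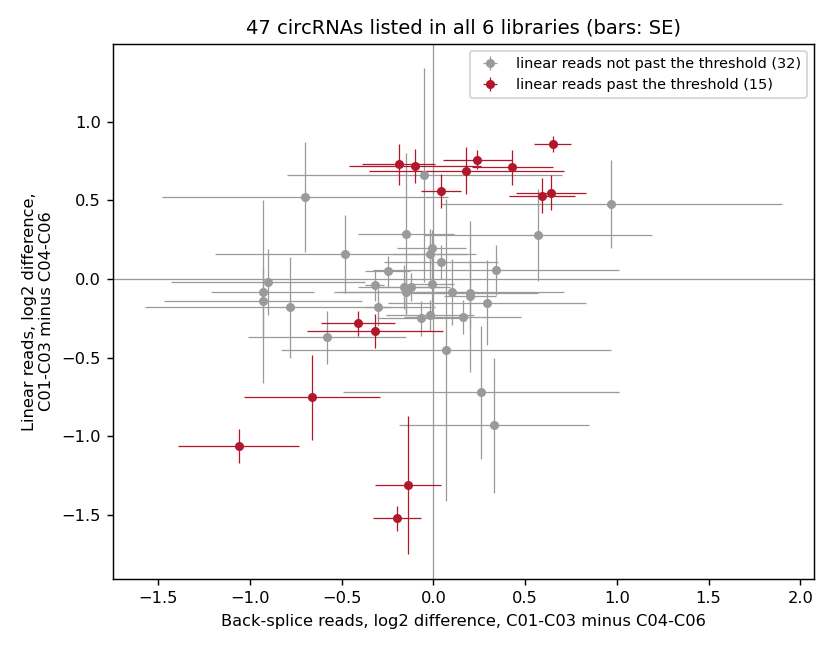
Log2 difference between groups (C01 to C03 minus C04 to C06) of back-splice reads (x axis) and of linear reads at the same ends (y axis) for the 47 short intergenic circRNAs listed in all 6 libraries, with bars for SE. Red points are the 15 whose linear reads passed the test, and the lowest of them, at -1.52, is the chromosome 15 circRNA.

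In total, 128 ± 7.51 short intergenic circRNAs were listed per library of C01 to C03 against 141 ± 7.23 (SD, n = 3 each). The two-sided exact permutation test gave p = 0.1, which 3 against 3 cannot go below. Over all circRNAs the numbers listed were 831 ± 39.9 against 960 ± 22.5, of which the short intergenic ones made up 15.4% ± 0.561 against 14.7% ± 0.947 (SD, n = 3 each). The lower number was thus also seen over all circRNAs. The mean of back-splice reads was lower in C01 to C03 too, 17971 ± 2815 against 20815 ± 1387. The groups overlapped, since C01 had 21038, above C04 (20680) and C06 (19501). These are totals of listed back-splice reads and not sequencing depth. After thinning to 15506 reads there were 124 ± 5.30 against 129 ± 5.16 (exact permutation p = 0.3). By contrast, 119 ± 10 against 112 ± 16.6 stood in the second caller's lists (exact permutation p = 0.7). Its list for C04 was the shortest, with 2843 candidates of all kinds against 3480 to 4803 in the other libraries, and held 97 of the short intergenic circRNAs. Their share of a library's back-splice reads was 20.1% ± 0.227 against 18.9% ± 0.699 (exact permutation p = 0.1). The most abundant circRNA of a library, that on chromosome 3 in each of C01 to C03 but chr2:240854068-240867796 in each of C04 to C06, took 20.4% ± 1.38 against 14.5% ± 0.227 of their reads (SD, n = 3 each).

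The short intergenic circRNAs were set against 3 other kinds, with 1 value per library and kind. In a library the second caller listed 63.4% ± 5.52 of them, against 30.5% ± 3.24 of the 336 intergenic circRNAs of 20 kb or more, higher in 6 of 6 libraries. It listed 74.5% ± 5.56 of the 891 exonic circRNAs under 20 kb, higher than the short intergenic in 6 of 6 libraries. For the 150 intronic circRNAs under 20 kb the value was 63.9% ± 9.77. The median circular share was 22.6% ± 1.94, against 15.7% ± 0.509 for the exonic (higher in 6 of 6), 24.8% ± 2.60 for the longer intergenic and 20.9% ± 5.16 for the intronic ones (SD, n = 6). In C02 the intronic value was 31.3%, against 17.8% to 20.2% in the other 5 libraries, and without C02 the short intergenic median was higher by 4.35 percentage points, in 5 of 5 libraries, instead of 1.66. The median number of reads where listed was 7.25 ± 0.880, against 6.75 ± 0.418 for the longer intergenic, 8.33 ± 0.816 for the exonic and 5.92 ± 0.917 for the intronic (SD, n = 6). Over these 9 comparisons the 3 that went one way in all libraries had an exact two-sided sign-flip permutation p = 0.031, the smallest that 6 libraries allow, and a Benjamini-Hochberg adjusted value of 0.094. None passed 0.05 after adjustment. The adjusted values of the other 6 were 0.11 to 0.88, and the libraries list many of the same circRNAs.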

How the data were processed

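Total RNA of 6 pineal glands (3 rats per group) was sequenced. The authors' main tables, 1 per library, have the columns of CIRI. Per the file headers they give counts of back-splice and linear reads and the fraction that is circular, which equals 2 times the back-splice reads over that number plus the linear reads (largest deviation 0.0005). They also deposited counts of junction reads in the format of find_circ (starts raised by 1 here), and a TPM table of the series, used as an alternative. DESeq and mm9, a mouse build, appear in the submitters' processing notes. The coordinates include a chromosome 20, which the mouse lacks, so they are not those of mm9. Which rat build was used is uncertain, and coordinates stay as deposited. The aligner, caller versions and settings were not given in the sources used here. RefSeq tables of GRCr8 were therefore not joined to them, and no sequence is printed.

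The fits used all circRNAs of the main tables, in R 4.3.3: edgeR 4.0.16 (TMM) for back-splice reads of 772 circRNAs (2 or more reads in 3 or more libraries) and for linear reads of 273 listed in all 6, and limma 3.58.1 (trend) for the circular share (0.5 added to each count). An unlisted circRNA counted as 0. SE is the log2 difference over the square root of F in edgeR. p-values were adjusted over all circRNAs tested, with a threshold of 0.05. The fits were tested on simulated counts drawn without limits on listing, so that test does not cover unlisted entries counted as 0. No 2 libraries agreed within sampling noise (chi-square per degree of freedom at least 1.39), and all carry 1 flow cell lane. The labels name separate rats.

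Named were the 10 of highest mean CPM, those past a threshold or next by p, those listed in 1 group only, the extremes of span and share, the largest loci and the most abundant that the second caller lacked. Alternatives were other normalizations and filters, the second caller, limma-voom, DESeq2 1.42.0, TPM (pseudocount 0.76 or 1), a 10000-base limit and leaving out each rat. The circRNAs, rules and tests were chosen with earlier results of these data known.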

Additional observations from a re-analysis of the deposited data

Results flagged for a closer look

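In rat C02 the median circular share of the short intergenic circRNAs was 19.5% and that of the intronic circRNAs under 20 kb 31.3%, a difference of -11.8 percentage points. The next lowest of the other 5 libraries had a difference of 1.46, so the gap took up 0.732 of the whole range. It was the intronic value that stood apart, since it was 17.8% to 20.2% elsewhere, while the short intergenic one was 21.6% to 24.5%. Such a gap is picked out at a limit that chance passes in about 1 in 20 groups, and 9 sets of 6 libraries were looked at. Without C02 the mean difference was 4.35 instead of 1.66, higher in 5 of 5 libraries (exact two-sided sign-flip permutation p = 0.062, the smallest that 5 libraries allow, Benjamini-Hochberg adjusted 0.11).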

How the results depend on the processing

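No paired analysis was possible because the 2 groups share no rat numbers. Of the comparisons with alternatives, 108 values kept their direction and side of the threshold or moved little, 15 moved and 6 reversed. For circRNAs named singly 299 were unchanged in call and direction, 37 lost and 9 gained a call, and 1 reversed. The cause was not tested.

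The number of short intergenic circRNAs with a back-splice call (3) was 5 with no filter on low counts, 1 among those listed in all 6 libraries, 6 with limma-voom and 1 with the second caller's counts. When 1 rat was left out it was 0 to 2, while 0.13% to 1.81% of all 772 circRNAs were called (1 to 14, and at most 3 without C04, C05 or C06). The number called for circular share (1) was 2 with at least 20 reads required, and 0 to 1 when 1 rat was left out, with 1.1% to 1.83% of all 273 called. The 1 call, without C06, was another circRNA, chr18:75203861-75207308, with a lower share in C01 to C03 (-1.61, limma adjusted p 0.022). For linear reads (15 of 47) it was 7 of 27 at a span under 10 kb (25.9%), where 31.9% of all 273 were called.

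The difference in number listed per library turned from -13 to 7 with the second caller's lists, of which that of C04 was the shortest. At chr20:25817478-25826661 the second caller's counts gave 0.03 on the log2 scale, opposite in sign. Against intronic circRNAs, the difference in median circular share was -0.952 at a span under 10 kb, and that in the share found by the second caller was 2.62 at 5 reads or more and -1.93 to 1.46 when 1 rat was left out. Against exonic circRNAs the difference in median reads was 0.25 at 5 reads or more. Listings of 2 or 3 reads limit what can be said of the 166 circRNAs seen in 1 library, and a gap in a table is not a measured 0.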
